A study of Mus musculus with 4 samples.

Results

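The genes described here encode the pyruvate dehydrogenase complex, its kinases and phosphatases, the mitochondrial pyruvate carrier, enzymes that attach lipoate, and enzymes of the tricarboxylic acid cycle. Others encode cytosolic, NADP-linked or malic enzymes that act on citrate, isocitrate or malate beside the cycle. All were chosen by symbol, 34 genes in all, each with a single row among the 37305 rows of the expression table. A mean abundance of at least 1 FPKM (a fragment number scaled by transcript length and library size) over the 4 libraries was reached by 33 of them, among 12474 rows that reached it in all. The gene below that level was Pdp2, a pyruvate dehydrogenase phosphatase, at 0.747 and 0.515 FPKM in Con-TD (F, G) and 0.875 and 0.415 FPKM in MCK-TD (A, B), and it was not tested (mean 0.638 FPKM). The lowest mean among the genes that reached it was that of Acly, 3.45 FPKM.

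RNA was sequenced from mouse tissue labelled GTN muscle, of strain C57BL/6, in 2 genotype groups. Con-TD holds libraries F and G, and MCK-TD holds libraries A and B, so n = 2 in each group. The labels spell out neither genotype name nor the altered gene, and give no treatment, age, sex, batch or number of animals, so the p-values measure library-to-library spread, possibly technical, and genotype effects cannot be told apart from any batch that was not recorded. Each change below is MCK-TD minus Con-TD on the log2(FPKM + 1) scale, which understates changes of genes with low FPKM. A gene is said to have risen or fallen when limma's moderated test, adjusted over all 12474 rows by the Benjamini-Hochberg method, gave an adjusted p under 0.05.

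All 10 muscle fibre markers were present, with a summed abundance of 93630 to 99382 FPKM in Con-TD and 58504 to 63431 FPKM in MCK-TD. Of these markers 8 fell, where 6.45% of all rows fell. The FPKM sum of a whole library was also lower in MCK-TD, at 1899175 and 2068375 (A, B), than in Con-TD, at 2725173 and 2762335 (F, G). The median row of the table changed by 0.22 on the deposited scale, by 0.01 after scaling by the median of ratios, by -0.05 after quantile normalization and by 0.28 after scaling without the 20 most abundant rows. Small positive and negative changes therefore depend on the scale, and changes relative to the median row are given for the genes that passed the test. In bulk tissue, fewer cells of a type and less RNA per cell cannot be told apart.

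Pyruvate dehydrogenase turns pyruvate into acetyl-CoA inside mitochondria and so sets how much carbohydrate enters the cycle. Kinases switch the complex off by phosphorylating its alpha subunit, and phosphatases switch it on again. In skeletal muscle the kinase Pdk4 is known to increase during fasting and fat use, whereas the phosphatase Pdp1 is the calcium-stimulated form, which links contraction to pyruvate oxidation. The cycle itself oxidises acetyl-CoA and supplies NADH to the respiratory chain.

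Regulators of the complex account for 4 of the 11 genes that passed the test described above. Of 4 kinases tested, 2 rose and 1 fell, and of 2 phosphatase genes tested, 1 rose. By comparison, 24.3% of all rows rose and 6.45% fell, 30.8% in either direction. Pdk3 entered the test through its MCK-TD values alone. Sequences before the starts of the 3 kinase genes that passed the test are shown first. They are RefSeq sequences of build GRCm38.p6 (the expression values were made on mm9), 250 bases ending at the base before the first listed start, read 5′ to 3′ on the strand of the gene. They lie at chr11:95041372-95041621 for Pdk2, chrX:93832151-93832400 for Pdk3 and chr6:5496279-5496528 for Pdk4, all on the minus strand. Capitals mark a match to the E-box CACGTG, the GC box GGGCGG or the CCAAT box CCAAT on either strand.
Pdk2: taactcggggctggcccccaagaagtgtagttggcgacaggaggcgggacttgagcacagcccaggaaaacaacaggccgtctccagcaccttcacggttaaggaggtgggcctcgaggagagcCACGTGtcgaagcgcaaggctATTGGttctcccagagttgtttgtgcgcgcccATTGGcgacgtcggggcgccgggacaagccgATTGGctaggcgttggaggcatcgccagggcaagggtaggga
Pdk3: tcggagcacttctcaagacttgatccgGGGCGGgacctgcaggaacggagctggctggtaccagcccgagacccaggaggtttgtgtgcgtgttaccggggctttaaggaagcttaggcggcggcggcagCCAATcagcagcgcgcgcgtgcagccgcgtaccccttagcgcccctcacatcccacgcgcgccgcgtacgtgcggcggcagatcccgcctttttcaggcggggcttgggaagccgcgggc
Pdk4: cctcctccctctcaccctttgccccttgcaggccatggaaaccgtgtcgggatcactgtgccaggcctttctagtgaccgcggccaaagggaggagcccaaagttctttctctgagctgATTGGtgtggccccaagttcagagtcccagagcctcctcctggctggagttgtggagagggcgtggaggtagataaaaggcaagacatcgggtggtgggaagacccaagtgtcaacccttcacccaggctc
A CCAAT box was present in all 3, beginning 105, 73 and 42 bases before the start in Pdk2, 120 bases before it in Pdk3 and 131 bases before it in Pdk4. The E-box stood 126 bases before the start of Pdk2, and the GC box 223 bases before that of Pdk3. No capitals overlap.

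RefSeq promoters were matched for 31 of the 34 genes, and the same 250-base window was searched in 27025 mouse genes. The CCAAT box, added to the search after these sequences had been read, was held by 15 of the 31 and by 34.5% of all promoters. The GC box was held by 20 of the 31, Pdhx, Idh1 and Suclg2 included, and by 32.9% of all promoters. The E-box was held by 3 of the 31 (Pdk2, Pdp2 and Pdpr) against 6.05% of all, and the cAMP response element TGACGTCA by 3 (Mdh2, Ogdh and Pdpr) against 1.62%. The forkhead motif GTAAACA and the oestrogen-related receptor motif AAGGTCA, held by 3.09% and 4.05% of all promoters, were found in 0 of the 31 windows. These are matches of letters and were not tested as binding sites.

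Of the 33 genes tested, 6 rose in MCK-TD, 5 fell and 22 did not pass the test. Among all rows tested, 24.3% rose and 6.45% fell, 30.8% in either direction. The genes that rose were Pdk3, Me2, Pdp1, Pdk4, Pdhx and Idh1, and those that fell were Pdk2, Suclg2, Idh3b, Me3 and Pdha1. The median change of the 33 was 0.13, against 0.22 over all rows. The groups did not overlap for 15 genes that were higher and 11 that were lower in MCK-TD, against 50.7% and 21.3% of all rows. Pdk3 and Me2 had a mean under 1 FPKM in Con-TD and entered the test through their MCK-TD values alone, so their presence among the rising genes was partly fixed by the filter. The calls of 8 of the 11 genes were the same under all 4 scalings of the libraries, the exceptions being Pdha1, Pdhx and Idh1. With median of ratios scaling 4 rose and 6 fell (14.7% and 12.1% of all rows), and with quantile normalization also 4 and 6 (12.7% and 13.4% of all rows). Scaled without the 20 most abundant rows, 6 rose and 4 fell (27.8% and 5.12% of all rows). Without the filter on low values 3 rose (Pdk3, Pdp1 and Me2) and 1 fell (Me3), against 6.51% and 1.46% of 25620 rows. With a library left out 0 of the 33 passed, as against 62 of all rows when Con-TD F was the one removed (0.497%), 90 for G (0.722%), 162 for MCK-TD A (1.3%) and 123 for B (0.986%). The directions of the 11 could not change in these fits, because the groups did not overlap for any of them.

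**Figure D1:**
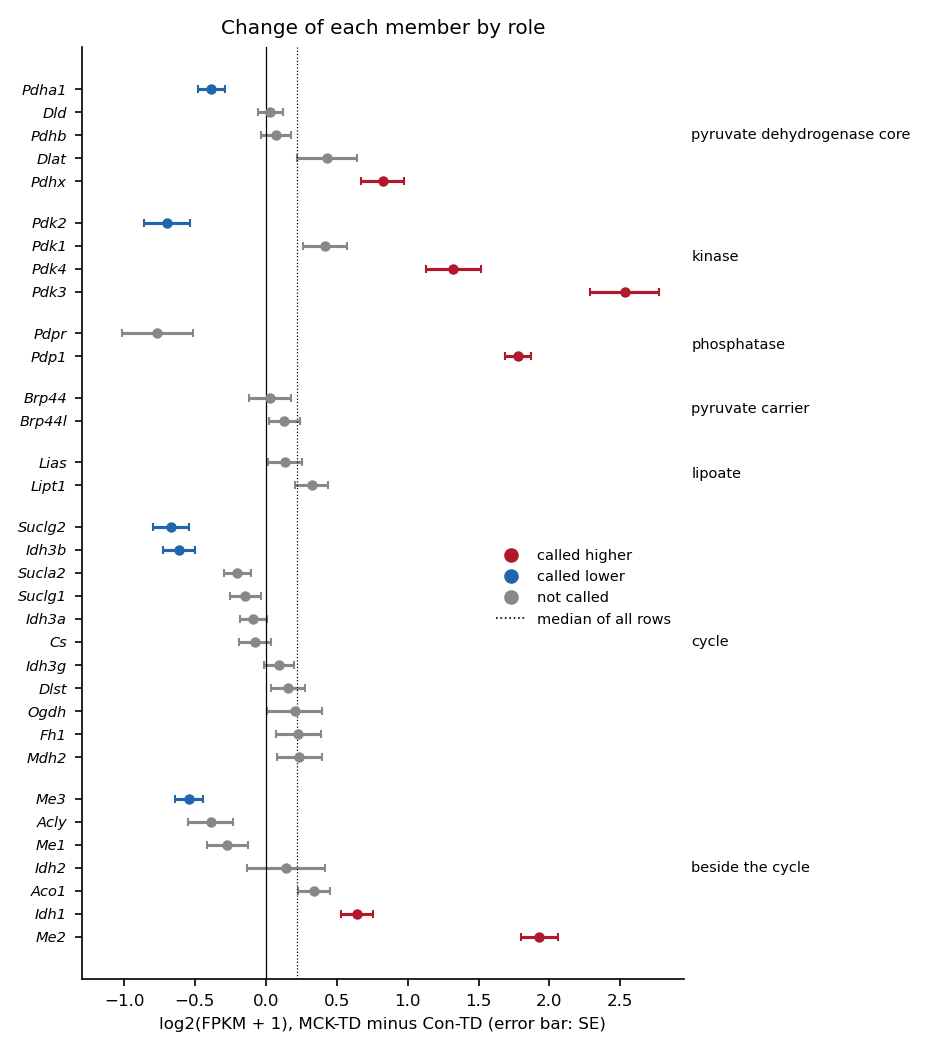
Change of each gene in MCK-TD relative to Con-TD on the log2(FPKM + 1) scale, with bars for the SE from limma (n = 2 libraries per group), grouped by role. Red points rose, blue points fell and grey points did not pass the test. The dotted line is the median of all rows (0.22), and the largest changes are those of Pdk3 (2.53), Me2 (1.93), Pdp1 (1.78) and Pdk4 (1.32).

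Among the 4 pyruvate dehydrogenase kinases, Pdk4 and Pdk3 rose, Pdk2 fell and Pdk1 did not pass. Pdk4 was at 84.4 and 59.5 FPKM in Con-TD (F, G) and at 180 and 178 FPKM in MCK-TD (A, B). Every MCK-TD value lay above every Con-TD value, and the MCK-TD libraries were nearly equal. The group means were 72.0 ± 17.6 and 179 ± 1.14 FPKM (mean ± SD, n = 2), a change of 1.32 (SE 0.19, limma adjusted p = 0.0164), or 1.10 relative to the median row.

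Pdk2, the broadly expressed kinase isoform and the most abundant kinase in Con-TD, was at 220.4 and 203 FPKM in Con-TD (F, G) and at 148 and 114 FPKM in MCK-TD (A, B). All Con-TD values lay above all MCK-TD values, and MCK-TD B was the lowest library. Pdk2 fell by 0.70 (SE 0.16, limma adjusted p = 0.0398), or by 0.92 relative to the median row.

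Pdk3, an X-linked isoform, was at 0.305 and 0.913 FPKM in Con-TD (F, G) and at 9.04 and 7.29 FPKM in MCK-TD (A, B). It was low in both Con-TD libraries, which differed from each other by a log2 difference of 0.55, and higher in both MCK-TD libraries. Its change was 2.53 (SE 0.24, limma adjusted p = 0.00915), or 2.31 relative to the median row, with single MCK-TD and Con-TD libraries differing by 2.12 to 2.94. Pdk1, an isoform known as a target of the hypoxia response, was at 8.88 and 11.3 FPKM in Con-TD and 14.6 and 12.9 FPKM in MCK-TD (change 0.42, SE 0.15, limma adjusted p = 0.111), and it did not pass although the groups did not overlap.

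Because FPKM is scaled per length, the kinases can be set against each other within a library, and such shares are not altered when all values of a library are multiplied by the same factor, although quantile normalization, which is no such factor, does alter them. The summed abundance of the 4 kinases was 314 and 274 FPKM in Con-TD (F, G) and 351 and 312 FPKM in MCK-TD (A, B), so the sums overlapped. Pdk2 made up 70.2% and 73.9% of that sum in Con-TD and 42.1% and 36.6% in MCK-TD. Pdk4 made up 26.9% and 21.7% in Con-TD and 51.2% and 57.0% in MCK-TD. Pdk2 was thus the leading kinase transcript in both Con-TD libraries and Pdk4 in both MCK-TD libraries, with a ratio of Pdk4 to Pdk2 of 0.383 and 0.294 in the former and 1.22 and 1.56 in the latter. Pdk3 reached 2.58% and 2.33% in MCK-TD from 0.0972% and 0.333% in Con-TD, and Pdk1 was between 2.83% and 4.18% in all 4 libraries. In these ratios the smallest two-sided p that an exact permutation test of 2 against 2 libraries can give is 0.333, so they are given as values.

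**Figure D2:**
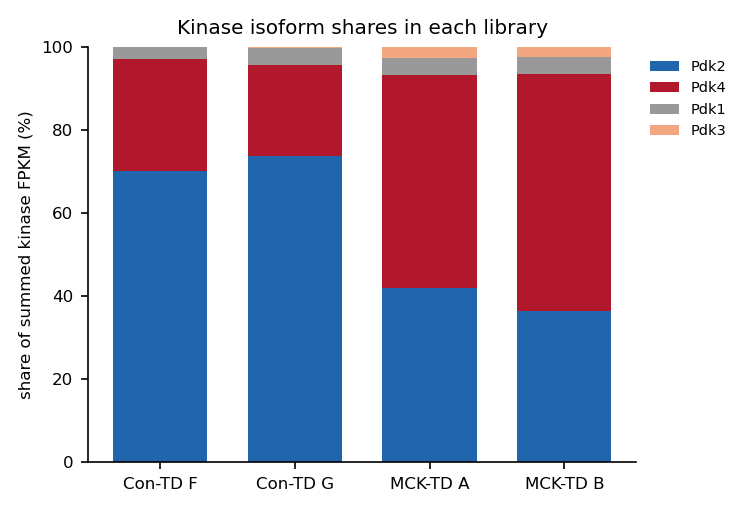
Share (%) of each kinase in the summed FPKM of Pdk1, Pdk2, Pdk3 and Pdk4 in each library, 1 bar per library. Pdk2 takes the largest share of both Con-TD bars (70.2% and 73.9%) and Pdk4 of both MCK-TD bars (51.2% and 57.0%).

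Among the phosphatase genes Pdp1 rose and Pdpr did not pass. Pdp1, the calcium-stimulated catalytic subunit, was at 23.0 and 23.4 FPKM in Con-TD (F, G) and at 80.8 and 82.8 FPKM in MCK-TD (A, B). Libraries of one genotype were nearly equal and the groups were far apart. The ratio of group means was 3.53 and the change 1.78 (SE 0.09, limma adjusted p = 0.00574), with single MCK-TD and Con-TD libraries differing by 1.75 to 1.81. Relative to the median row the change was 1.56.

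Pdpr, the regulatory subunit of the phosphatase, was at 5.73 and 3.62 FPKM in Con-TD (F, G) and at 1.88 and 2.74 FPKM in MCK-TD (A, B). The groups did not overlap, but the libraries within each group differed widely and Pdpr did not pass (change -0.77, SE 0.25, limma adjusted p = 0.0874). Within a library the ratio of Pdpr to Pdp1 was 0.250 and 0.155 in Con-TD and 0.0233 and 0.0331 in MCK-TD. The ratio of Pdp1 to the summed kinases was 0.0732 and 0.0853 in Con-TD and 0.230 and 0.265 in MCK-TD. Pdp1 transcript, without Pdp2 or Pdpr, was thus higher relative to kinase transcript in both MCK-TD libraries. The kinase sum itself overlapped between the groups.

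**Figure D3:**
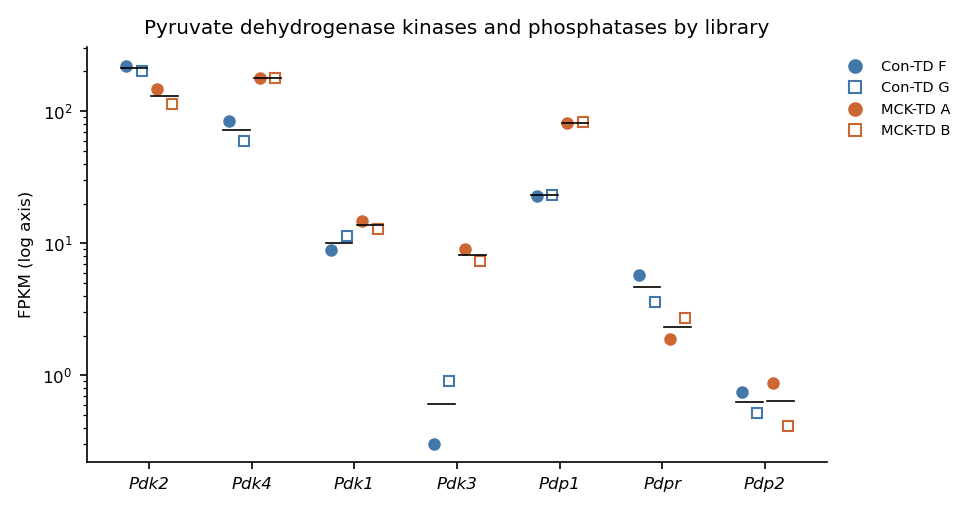
FPKM (log axis) of the pyruvate dehydrogenase kinases Pdk2, Pdk4, Pdk1 and Pdk3, the phosphatases Pdp1 and Pdp2 and the regulatory subunit Pdpr in each library, with short lines at the group means. Pdk2 lies lower in MCK-TD, Pdk4, Pdk3 and Pdp1 lie higher, and Pdp2 stays under 1 FPKM in all 4 libraries.

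In the core of the complex, Pdhx rose, Pdha1 fell, and Pdhb, Dlat and Dld did not pass. Pdhx, the protein that docks lipoamide dehydrogenase onto the core, was at 34.7 and 29.5 FPKM in Con-TD (F, G) and at 63.1 and 52.2 FPKM in MCK-TD (A, B). Both MCK-TD values lay above both Con-TD values, with a change of 0.82 (SE 0.15, limma adjusted p = 0.0248), or 0.61 relative to the median row. After scaling by the median of ratios or quantile normalization Pdhx did not pass (limma adjusted p = 0.0691 and 0.0778, in a range of 0.0155 to 0.122 over all alternatives).

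Pdha1, the alpha subunit that the kinases phosphorylate, was at 179 and 189 FPKM in Con-TD (F, G) and at 142 and 139 FPKM in MCK-TD (A, B). The groups did not overlap and both spreads were small. Pdha1 fell by 0.38 (SE 0.09, limma adjusted p = 0.0463), or by 0.60 relative to the median row, and lay close to the threshold. It passed in 3 of 8 alternatives that kept all 4 libraries, among them scaling by the median of ratios (limma adjusted p = 0.0186), but not when scaled without the 20 most abundant rows (0.0930, in a range of 0.0186 to 0.162 over all alternatives).

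Pdhb, the beta subunit that pairs with Pdha1, was at 164 and 175 FPKM in Con-TD and 186 and 170 FPKM in MCK-TD, with overlapping groups (limma adjusted p = 0.642). Within a library the ratio of Pdha1 to Pdhb was 1.09 and 1.08 in Con-TD and 0.762 and 0.820 in MCK-TD. The alpha transcript was therefore the more abundant in both Con-TD libraries and the beta transcript in both MCK-TD libraries. Dlat, the acetyltransferase, was at 56.2 and 59.5 FPKM in Con-TD (F, G) and at 94.7 and 64.6 FPKM in MCK-TD (A, B) (limma adjusted p = 0.187), and its MCK-TD libraries differed more from each other than MCK-TD B did from Con-TD G. Dld, the lipoamide dehydrogenase shared with the oxoglutarate and branched-chain complexes, was at 84.8 to 88.1 FPKM in all 4 libraries (limma adjusted p = 0.804).

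Brp44l and Brp44 are the older symbols of Mpc1 and Mpc2, the subunits of the carrier that brings pyruvate into mitochondria, and neither passed the test. Brp44l was at 190.4 and 211 FPKM in Con-TD and at 225 and 214 FPKM in MCK-TD (limma adjusted p = 0.384). Brp44 was at 204 and 244 FPKM in Con-TD and at 247 and 211 FPKM in MCK-TD (limma adjusted p = 0.884). The ratio of Brp44 to Brp44l lay between 0.985 and 1.16 and overlapped between the groups. Lias, which synthesises lipoate, was at 23.3 to 28.1 FPKM over the 4 libraries, and Lipt1, which transfers it to the acyltransferase subunits, at 4.34 and 4.95 FPKM in Con-TD and 5.96 and 6.16 FPKM in MCK-TD, and neither passed (limma adjusted p = 0.415 and 0.102).

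Of the 11 mitochondrial cycle enzymes, 0 rose, 2 fell and 9 did not pass, with a median change of -0.08 and a range of -0.67 to 0.24. Among all rows tested 24.3% rose and 6.45% fell. At an unadjusted limma p under 0.05 the cycle enzymes also gave 0 higher and 2 lower, against 34.3% and 11% of all rows. Both genes that fell encode subunits with a close partner whose transcript did not pass. Idh3b, the beta regulatory subunit of the NAD-dependent isocitrate dehydrogenase, was at 248 and 258 FPKM in Con-TD (F, G) and at 176 and 155 FPKM in MCK-TD (A, B). Neither MCK-TD value reached the Con-TD range, and Idh3b fell by 0.61 (SE 0.11, limma adjusted p = 0.0256), or by 0.83 relative to the median row.

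The catalytic subunit Idh3a was at 239 and 236 FPKM in Con-TD and at 231 and 216 FPKM in MCK-TD (change -0.09, limma adjusted p = 0.522). The other regulatory subunit, Idh3g, was at 212 and 225 FPKM in Con-TD and at 243 and 223 FPKM in MCK-TD (change 0.09, limma adjusted p = 0.524; -0.16 after scaling by the median of ratios). The ratio of Idh3b to Idh3a was 1.04 and 1.10 in Con-TD and 0.763 and 0.718 in MCK-TD. That of Idh3g to Idh3a was 0.886 and 0.955 in Con-TD and 1.05 and 1.04 in MCK-TD. By FPKM, Idh3b ranked 3rd of the 34 genes in the Con-TD means and 11th in the MCK-TD means, while Idh3g ranked 7th and 2nd. The MCK-TD means at ranks 2 to 5 were close, from 233.0 FPKM for Idh3g to 227.5 FPKM for Ogdh.

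Suclg2, the GTP-specific beta subunit of succinyl-CoA ligase, was at 13.8 and 14.8 FPKM in Con-TD (F, G) and at 9.36 and 7.92 FPKM in MCK-TD (A, B). Both MCK-TD values were under both Con-TD values, and Suclg2 fell by 0.67 (SE 0.12, limma adjusted p = 0.0256), or by 0.89 relative to the median row. Sucla2, the ATP-specific beta subunit, was far more abundant, at 263 and 273 FPKM in Con-TD and at 235 and 230.1 FPKM in MCK-TD. Sucla2 did not pass (change -0.20, SE 0.09, limma adjusted p = 0.172), except after scaling by the median of ratios (limma adjusted p = 0.0327, in a range up to 0.398 when scaled without the 20 most abundant rows). Suclg1, the alpha subunit that both share, was at 152 and 162 FPKM in Con-TD and 150.1 and 134 FPKM in MCK-TD (limma adjusted p = 0.362). The ratio of Suclg2 to Sucla2 was 0.0524 and 0.0544 in Con-TD and 0.0399 and 0.0344 in MCK-TD.

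The remaining cycle enzymes did not pass, and several of them differed more between the MCK-TD libraries than between the groups. Cs, citrate synthase, which opens the cycle, was at 233 and 231 FPKM in Con-TD (F, G) and at 235 and 205 FPKM in MCK-TD (A, B) (limma adjusted p = 0.621). Ogdh, the decarboxylase of the oxoglutarate complex, was at 184 and 206 FPKM in Con-TD and at 264 and 191 FPKM in MCK-TD (limma adjusted p = 0.453). Its partner Dlst, the succinyltransferase, was at 81.1 and 89.4 FPKM in Con-TD and at 102 and 89.0 FPKM in MCK-TD (limma adjusted p = 0.357).

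In each of these the highest value was in MCK-TD A, and MCK-TD B lay within or below the Con-TD range. Fh1, fumarase, was at 107 and 108 FPKM in Con-TD and at 145 and 110.4 FPKM in MCK-TD (limma adjusted p = 0.320). Mdh2, mitochondrial malate dehydrogenase and the most abundant of the 34 genes in both groups, was at 422 and 454 FPKM in Con-TD and at 584 and 455 FPKM in MCK-TD (limma adjusted p = 0.314). For Fh1 and Mdh2, MCK-TD B was close to Con-TD G and MCK-TD A stood apart.

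The gap between the MCK-TD libraries ran through the whole cycle. All 11 cycle enzymes were lower in MCK-TD B than in MCK-TD A, by a median log2 difference of -0.19 and by -0.47 to -0.03, although 54.7% of all rows were higher in B and the median row differed by 0.03. All 5 core subunits of pyruvate dehydrogenase and all 4 kinases were lower in B as well. Between the Con-TD libraries 9 of the 11 cycle enzymes were higher in G than in F, by a median log2 difference of 0.09. Among all rows 56.4% were higher in G, and the median row differed by 0.03. The summed abundance of 5 slow-fibre markers, genes of the more oxidative fibres, was 492 and 1157 FPKM in Con-TD (F, G) and 793 and 630.4 FPKM in MCK-TD (A, B), so in each genotype it was higher in the library where most cycle enzymes were higher. The same order of libraries held for 5 of the 9 marker lists, namely the slow-fibre, macrophage, endothelial, adipocyte and erythroid lists. The muscle fibre and satellite cell lists had the reverse order in both genotypes. Summed muscle fibre markers were at 99382 and 93630 FPKM in Con-TD (F, G) and at 58504 and 63431 FPKM in MCK-TD (A, B). The fibro-adipogenic progenitor and lymphocyte lists had the same order in Con-TD only. The summed erythroid markers were at 1352 and 5109 FPKM in Con-TD (F, G) and at 3026 and 1853 FPKM in MCK-TD (A, B). The part of these markers in the differences between libraries was not tested.

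**Figure D4:**
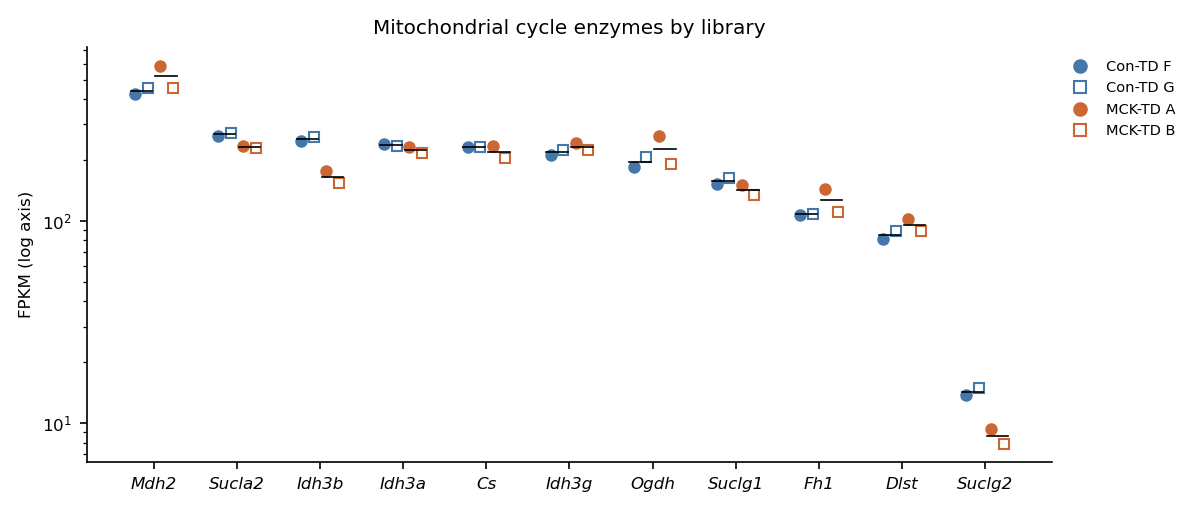
FPKM (log axis) of the 11 mitochondrial cycle enzymes in each library, with short lines at the group means. Idh3b and Suclg2 lie lower in both MCK-TD libraries. Every enzyme is higher in MCK-TD A than in MCK-TD B.

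Among the 7 enzymes beside the cycle, which are cytosolic, NADP-linked or malic enzymes, Me2 and Idh1 rose, Me3 fell and 4 did not pass. Of all rows tested, 24.3% rose and 6.45% fell, and Me2 entered the test through its MCK-TD values alone. Me2, the NAD-dependent malic enzyme of mitochondria, was at 0.924 and 0.891 FPKM in Con-TD (F, G) and at 5.83 and 6.72 FPKM in MCK-TD (A, B). Libraries of one genotype were close and the groups far apart, with a change of 1.93 (SE 0.13, limma adjusted p = 0.00738), or 1.71 relative to the median row, and a ratio of group means of 6.92. Me3, the NADP-dependent malic enzyme of mitochondria, was at 45.1 and 45.9 FPKM in Con-TD and at 29.7 and 32.3 FPKM in MCK-TD. The groups did not overlap, and Me3 fell by 0.54 (SE 0.10, limma adjusted p = 0.0254), or by 0.76 relative to the median row.

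Me1, the cytosolic NADP-dependent malic enzyme, was the most abundant of the 3 in every library, at 102 and 84.8 FPKM in Con-TD and 72.4 and 82.0 FPKM in MCK-TD (limma adjusted p = 0.214). Within each library Me2 made up 0.622% and 0.677% of the summed malic enzyme FPKM in Con-TD and 5.41% and 5.55% in MCK-TD. Me3 made up 30.4% and 34.9% in Con-TD and 27.5% and 26.7% in MCK-TD, whereas the Me1 share, 64.4% to 69.0%, overlapped between the groups. Despite its rise, Me2 stayed a minor malic enzyme transcript in MCK-TD.

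Idh1, the cytosolic NADP-dependent isocitrate dehydrogenase, was at 9.57 and 9.04 FPKM in Con-TD (F, G) and at 14.2 and 16.0 FPKM in MCK-TD (A, B). The groups did not overlap, and Idh1 rose by 0.64 (SE 0.11, limma adjusted p = 0.0223), or by 0.42 relative to the median row. It did not pass after scaling by the median of ratios or quantile normalization (limma adjusted p = 0.0650 and 0.0881, in a range of 0.0131 to 0.124 over all alternatives). Idh2, its mitochondrial counterpart, was at 110.1 and 158 FPKM in Con-TD and at 177 and 120.0 FPKM in MCK-TD (limma adjusted p = 0.716). Idh2 varied widely within both genotypes, and the groups overlapped.

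Aco1, the cytosolic aconitase that doubles as an iron regulatory protein, was at 3.89 and 3.87 FPKM in Con-TD and at 4.94 and 5.42 FPKM in MCK-TD (change 0.34, limma adjusted p = 0.0849). Acly, which cleaves exported citrate to acetyl-CoA for lipid synthesis, was at 3.47 and 4.64 FPKM in Con-TD and at 2.91 and 2.77 FPKM in MCK-TD (change -0.39, limma adjusted p = 0.138). It passed only after quantile normalization (limma adjusted p = 0.0430, in a range up to 0.368 with a library left out). The summed abundance of 7 adipocyte markers was 225 and 463 FPKM in Con-TD (F, G) and 201 and 136 FPKM in MCK-TD (A, B), with Con-TD G the highest library both for these markers and for Acly, and its part in the Acly values was not tested.

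Macrophage markers were higher in MCK-TD, as were Pdk3 and Me2. Both genes reached the filter through their MCK-TD values alone, so the direction they share with these markers was partly fixed by the filter. Pdp1, Pdk4, Pdhx and Idh1 rose too, and 50.7% of all rows were higher in MCK-TD with groups that did not overlap. The 8 of 9 macrophage markers with a row summed to 22.3 to 30.0 FPKM in Con-TD and 94.8 to 123 FPKM in MCK-TD. Of the 7 tested 4 rose, where 24.3% of all rows rose. The sum was higher in MCK-TD A than in MCK-TD B, as was Pdk3, whereas Me2 was higher in MCK-TD B. The part of macrophages in the values of Pdk3 and Me2 was not tested. Lymphocyte markers summed to at most 1.21 FPKM in any library. Endothelial markers summed to 28.7 to 36.1 FPKM in Con-TD and 15.9 to 22.8 FPKM in MCK-TD, and 2 of 6 fell. Markers of fibro-adipogenic progenitors summed to 268 to 336 FPKM in Con-TD and 199 to 235 FPKM in MCK-TD, and 1 of 6 fell. The share of all rows that fell was 6.45%.

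Of 33 genes outside the module that feed, drain or complete the same pathway, 29 reached the filter, 1 rose, 6 fell and 22 did not pass, where 24.3% of all rows rose and 6.45% fell. Mdh1, the cytosolic malate dehydrogenase of the malate-aspartate shuttle, was at 408 and 470.4 FPKM in Con-TD (F, G) and at 957 and 799 FPKM in MCK-TD (A, B) (change 0.997, SE 0.15, limma adjusted p = 0.0169). It thus rose while its mitochondrial counterpart Mdh2 did not pass. Pcx, pyruvate carboxylase, which makes oxaloacetate from pyruvate, was at 39.4 and 50.4 FPKM in Con-TD and at 5.05 and 5.32 FPKM in MCK-TD (change -2.88, SE 0.15, limma adjusted p = 0.00574).

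The other genes that fell and are named here were Bckdk, the kinase of the branched-chain ketoacid complex, which is built like pyruvate dehydrogenase (116 ± 7.50 to 66.1 ± 4.60 FPKM), D2hgdh, D-2-hydroxyglutarate dehydrogenase (4.04 ± 0.581 to 1.89 ± 0.188), Acss1, a mitochondrial acetyl-CoA synthetase (5.50 ± 0.531 to 2.79 ± 0.660), and Ldha, lactate dehydrogenase (1470 ± 134 to 948 ± 9.02). Their limma adjusted p-values were 0.0148 to 0.0360. The succinate dehydrogenase subunits Sdha, Sdhb, Sdhc and Sdhd, which complete the cycle as part of the respiratory chain, did not pass, with limma adjusted p-values of 0.511 to 0.654.

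For comparison, 85 nuclear-encoded respiratory chain genes had a median change of -0.03, with 0 higher and 5 lower, and 10 core glycolytic genes a median of -0.46, with 1 higher and 4 lower, where 24.3% of all rows rose and 6.45% fell. At an unadjusted limma p under 0.05 the respiratory chain list gave 4 higher and 10 lower. At that threshold 14 of the 33 genes of the module would pass, against 45.4% of all rows, and 11 of the 14 passed after adjustment. The respiratory chain list shares the Sdh subunits, and the glycolytic list Ldha, with the genes of the preceding paragraphs, and no difference between lists was tested.

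**Figure D5:**
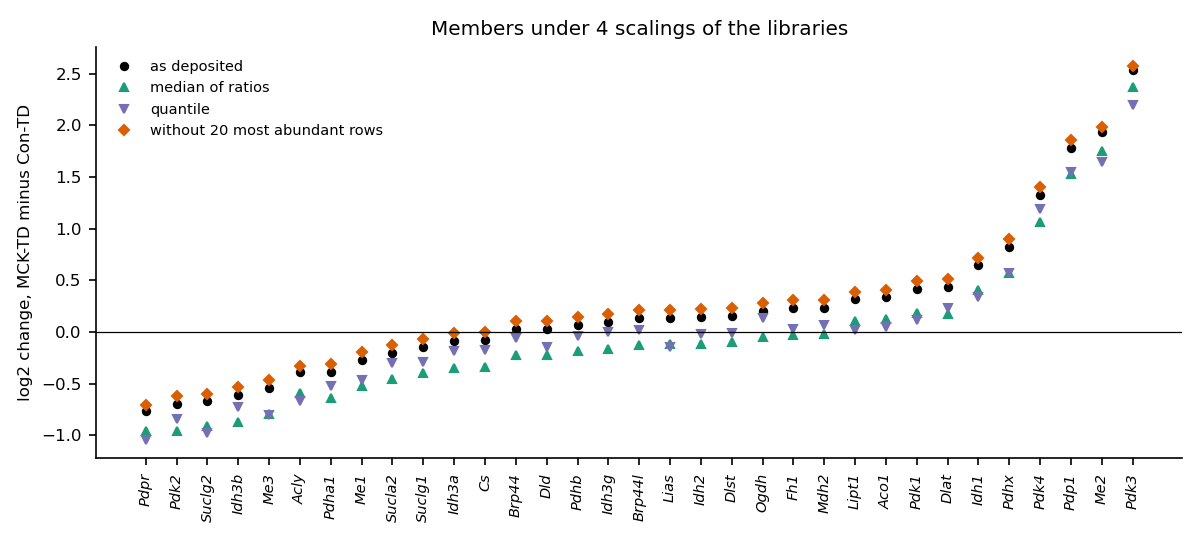
Log2 change of each of the 33 genes under 4 scalings of the libraries, with genes ordered by the change on the deposited scale. Pdk3, Me2, Pdp1 and Pdk4 stay above 1 and Pdk2, Suclg2, Idh3b and Me3 stay below 0 under all 4, while 12 genes in the middle change sign.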

How the data were processed

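Mouse GTN muscle RNA from Con-TD and MCK-TD (2 libraries each) was enriched for mRNA and sequenced, per the labels' protocols. The authors deposited abundance as FPKM, with 1 column for each library. Per the submitters' processing notes, the tools and build named are STAR, Cufflinks and mm9, with no role, version or annotation given, and the unit was read from the Cufflinks column naming and the values. Absolute depth is unknown. Relative depth, from the most frequent ratio between libraries of values under 0.2 FPKM, was 0.934 to 1 of that of Con-TD F.

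Rows with a mean of at least 1 FPKM were taken as log2(FPKM + 1) and fitted by genotype with limma 3.58.1 in R 4.3.3 (intensity trend, 2 residual degrees of freedom, two-sided), with Benjamini-Hochberg adjustment over all rows at 0.05. The fit was also run on simulated data whose spread was drawn from the fitted model and where most rows were unchanged. That run does not show how the fit performs on these data, where 30.8% of rows passed. No library was dropped or imputed. Alternatives were a pseudocount of 0.1, no filter or a mean of at least 5 FPKM, 3 other scalings, 2 other variance models and each library left out. The genes and lists were chosen with earlier results of these data known. Every gene of the module that passed the filter could be named, as could the 6 called related genes with the largest change. Promoters came from RefSeq (GRCm38.p6), matched by symbol. Text notes deposited beside the table were not used.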

Additional observations from a re-analysis of the deposited data

How the results depend on the processing

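Directions of the 11 called genes were the same under each of the 12 alternatives that tested them (Pdk3 and Me2 lie below a mean of 5 FPKM). Only the 3 other scalings could have changed a direction. For genes whose groups do not overlap, the pseudocount, the filters, the variance models and left-out libraries could not. Pdk3, Pdp1, Me2 and Me3 passed in every alternative that kept all 4 libraries and tested them. Without a filter on low values, 25620 rows were tested, and 3 members rose and 1 fell, with 2043 calls over all rows and 2 related genes lower. With a mean of at least 5 FPKM, 2 related genes rose. Leaving out 1 library gave 0 calls among members and 0 among related genes in either direction, against 62 to 162 over all rows, and these fits had a lone library in a group, assumed to vary like the other group.

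The genes that changed sign were all below the threshold both before and after. After scaling by the median of ratios, log2 changes were -0.19 for Pdhb, -0.22 for Dld, -0.23 for Brp44, -0.13 for Brp44l, -0.11 for Lias, -0.16 for Idh3g, -0.053 for Ogdh, -0.10 for Dlst, -0.027 for Fh1, -0.022 for Mdh2 and -0.12 for Idh2. After quantile normalization they were -0.036 for Pdhb, -0.15 for Dld, -0.059 for Brp44, -0.15 for Lias, -0.0012 for Idh3g, -0.011 for Dlst and -0.018 for Idh2. Scaled without the 20 most abundant rows, Cs changed by 1.8e-05. With 1 library left out, changes ran from -0.10 to 0.16 for Brp44, -0.18 to 0.019 for Cs, -0.030 to 0.44 for Ogdh and -0.14 to 0.42 for Idh2. The cause of these sign changes was not tested. No paired analysis was possible because the library letters are not shared between the groups. The absolute depth behind each FPKM is unknown, which leaves the counting error of low genes such as Pdp2, Pdk3 and Me2 in Con-TD without an interval.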
